A study of Mus musculus with 6 samples.

Results

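Cholesterol and fatty acids are made in the cytosol and the endoplasmic reticulum from acetyl-CoA, and the 32 genes described here encode the enzymes of both routes, the factors that switch them on, and 3 sterol carriers. They are the members of a list of cholesterol and fatty acid synthesis genes, matched by name. Each of the 32 was measured by 1 feature among 25428 on the arrays. The list holds 14 enzymes of sterol synthesis, 5 genes of sterol sensing and transcription, 3 sterol transporters and 10 genes of fatty acid synthesis, desaturation and elongation.

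Lung RNA came from 3 Nfat5fl/fl mice, which carry the floxed allele and served as controls, and 3 Nfat5(EC)-/- mice, in which, by the title of the series, Nfat5 was deleted in endothelial cells, the lining of blood vessels. NFAT5 is a transcription factor known for its response to osmotic stress. Every mouse, controls included, had spent 7 days at 10% oxygen before the lungs were taken, so that no value from normal oxygen enters these comparisons, and 1 lung lobe of each mouse was hybridised to 1 Affymetrix array. The mice carry the numbers 1, 3 and 4 in each group, and values are listed below in that order. The labels name neither the Cre line nor the age and sex of the mice. A lobe also holds many cells that are not endothelial, and in such bulk tissue fewer cells of a type and less RNA per cell cannot be told apart.

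Synthesis of these lipids is controlled by the sterol regulatory element binding proteins (SREBPs), transcription factors that are made as inactive precursors in the endoplasmic reticulum membrane. When sterols are low, the escort protein SCAP carries them to the Golgi for cleavage, and the released part enters the nucleus and activates genes of both routes. When sterols are high, INSIG proteins hold SCAP back. In the lung, alveolar type II cells make much lipid for surfactant, the film that lowers surface tension in the air spaces. SREBPs bind sterol regulatory elements (SREs), often next to a CCAAT box, which is bound by the factor NF-Y.

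The stretches printed next are the 180 bases before the RefSeq start sites of 6 members, read 5′ to 3′ on the strand of the gene, from assembly GRCm38.p6. They show 3 genes that were lower in Nfat5(EC)-/- lungs, Hmgcs1 (chr13:119690171-119690350, plus strand), Cyp51 (chr5:4104698-4104877, minus strand) and Msmo1 (chr8:64733579-64733758, minus strand), and 3 that were higher, Mvd (chr8:122443423-122443602, minus strand), Mvk (chr5:114444089-114444268, plus strand) and Fasn (chr11:120824548-120824727, minus strand). Capitals mark CCAAT on either strand, which reads ATTGG on the opposite one, and the SRE TCACCCCAC.
Hmgcs1: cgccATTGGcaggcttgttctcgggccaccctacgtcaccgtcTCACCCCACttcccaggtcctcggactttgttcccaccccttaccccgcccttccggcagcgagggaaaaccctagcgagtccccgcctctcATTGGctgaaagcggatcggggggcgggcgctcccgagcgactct
Cyp51: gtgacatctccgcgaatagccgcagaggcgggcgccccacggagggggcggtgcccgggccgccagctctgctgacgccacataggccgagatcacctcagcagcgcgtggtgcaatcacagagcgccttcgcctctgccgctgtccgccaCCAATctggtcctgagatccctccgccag
Msmo1: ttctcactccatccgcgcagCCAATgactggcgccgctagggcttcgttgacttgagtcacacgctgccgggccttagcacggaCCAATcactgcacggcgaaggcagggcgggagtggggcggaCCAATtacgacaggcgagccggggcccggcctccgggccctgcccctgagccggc
Mvd: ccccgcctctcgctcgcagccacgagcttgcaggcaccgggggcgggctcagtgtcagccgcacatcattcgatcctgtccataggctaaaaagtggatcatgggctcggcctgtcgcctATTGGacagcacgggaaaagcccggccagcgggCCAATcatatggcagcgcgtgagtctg
Mvk: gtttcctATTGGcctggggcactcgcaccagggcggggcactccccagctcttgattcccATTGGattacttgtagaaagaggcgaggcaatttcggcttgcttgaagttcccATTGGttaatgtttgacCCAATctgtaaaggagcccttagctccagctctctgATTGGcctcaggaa
Fasn: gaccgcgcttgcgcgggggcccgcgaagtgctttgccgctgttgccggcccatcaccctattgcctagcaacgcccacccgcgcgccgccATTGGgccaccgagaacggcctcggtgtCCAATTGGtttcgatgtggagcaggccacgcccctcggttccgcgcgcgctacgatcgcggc
Each of the 6 stretches held CCAAT, from 1 copy in Cyp51 to 5 in Mvk, so that genes which moved in opposite directions carried the same letters. In Fasn, 2 of the 3 copies lie on opposite strands and overlap by 2 bases.

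RefSeq windows were found for 24 of the 32 genes. The remaining 8 are Fdft1, Scd1, Stard4, Sqle, Abcg1, Fads1, Fdps and Scd2. Within 250 bases before a start, CCAAT on either strand lay in 20 of 33 windows (60.6%), against 35.1% of 19491 windows of protein-coding genes. It was found for 7 of 8 higher genes, 6 of 7 lower genes and 6 of 9 genes that did not pass the test. The SRE TCACCCCAC was found in 1 of 33 windows, that of Hmgcs1, and in 0.513% of all windows. With 1 mismatch allowed it was found in 3 windows, those of Hmgcs1, Srebf2 and Nsdhl, which is 9.09% against 8.73% of all windows. The letters TGGAAA, the core of the element that NFAT5 binds, lay in 6 windows (18.2%) against 17.0% of all windows, and the E-box CACGTG in 6 windows (18.2%) against 6.91%. These are matches of letters on either strand and say nothing of binding.

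The median of each array was 2.98 log2 units. Each of the 32 genes had a mean over all 6 arrays above it, although the mean of Cyp51 in Nfat5(EC)-/- (2.84) and that of Idi1 in Nfat5fl/fl mice (2.87) lay below. Nfat5 itself, the targeted gene, was 6.65, 6.58 and 6.30 in Nfat5fl/fl and 4.46, 4.48 and 3.89 in Nfat5(EC)-/- mice, a difference of -2.23 (SE 0.23, adjusted p = 0.00151) by limma (Benjamini-Hochberg, 25428 features). The groups did not overlap for Nfat5, and the position of its probes relative to the deleted part is not known here. As a check of the tissue, the surfactant protein genes Sftpc (mean 12.20 in Nfat5fl/fl and 11.76 in Nfat5(EC)-/-) and Sftpb (11.35 and 11.07) stood far above the median. Arrays of Nfat5fl/fl mice correlated with each other at r between 0.968 and 0.970 over all features, those of Nfat5(EC)-/- mice at 0.916 to 0.939, and arrays of different groups at 0.829 to 0.919.

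Lungs of Nfat5(EC)-/- mice showed a mixed picture for cholesterol and fatty acid synthesis. Of the 32 genes, 8 were higher, 8 were lower and 16 did not pass an adjusted p of 0.05 (limma, all 6 arrays), so that 50.0% were called. Over all features 25.6% were called, 12.5% higher and 13.1% lower. All 32 genes belong to the 12881 features with a mean over all arrays above the array median. When these features were fitted alone, with p-values adjusted over them, 46.7% were called. The share of 50.0%, from the fit of all features, lay near that background. The median difference over the 32 genes was 0.02 log2 units, against 0.04 over all features. The 3 Nfat5(EC)-/- arrays lay all above or all below the 3 Nfat5fl/fl arrays for 21 of 32 genes (65.6%), against 42.0% of all features and 59.0% of those above the array median. Single genes ranged from -1.86 for Acaca to 1.58 for Srebf1. Without moderation of the variance across features, 4 of the 32 genes, Pmvk, Mvd, Srebf1 and Fasn, were called higher and 1, Nsdhl, lower. Leaving out 1 array at a time gave 5 to 9 higher and 4 to 10 lower.

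**Figure D1:**
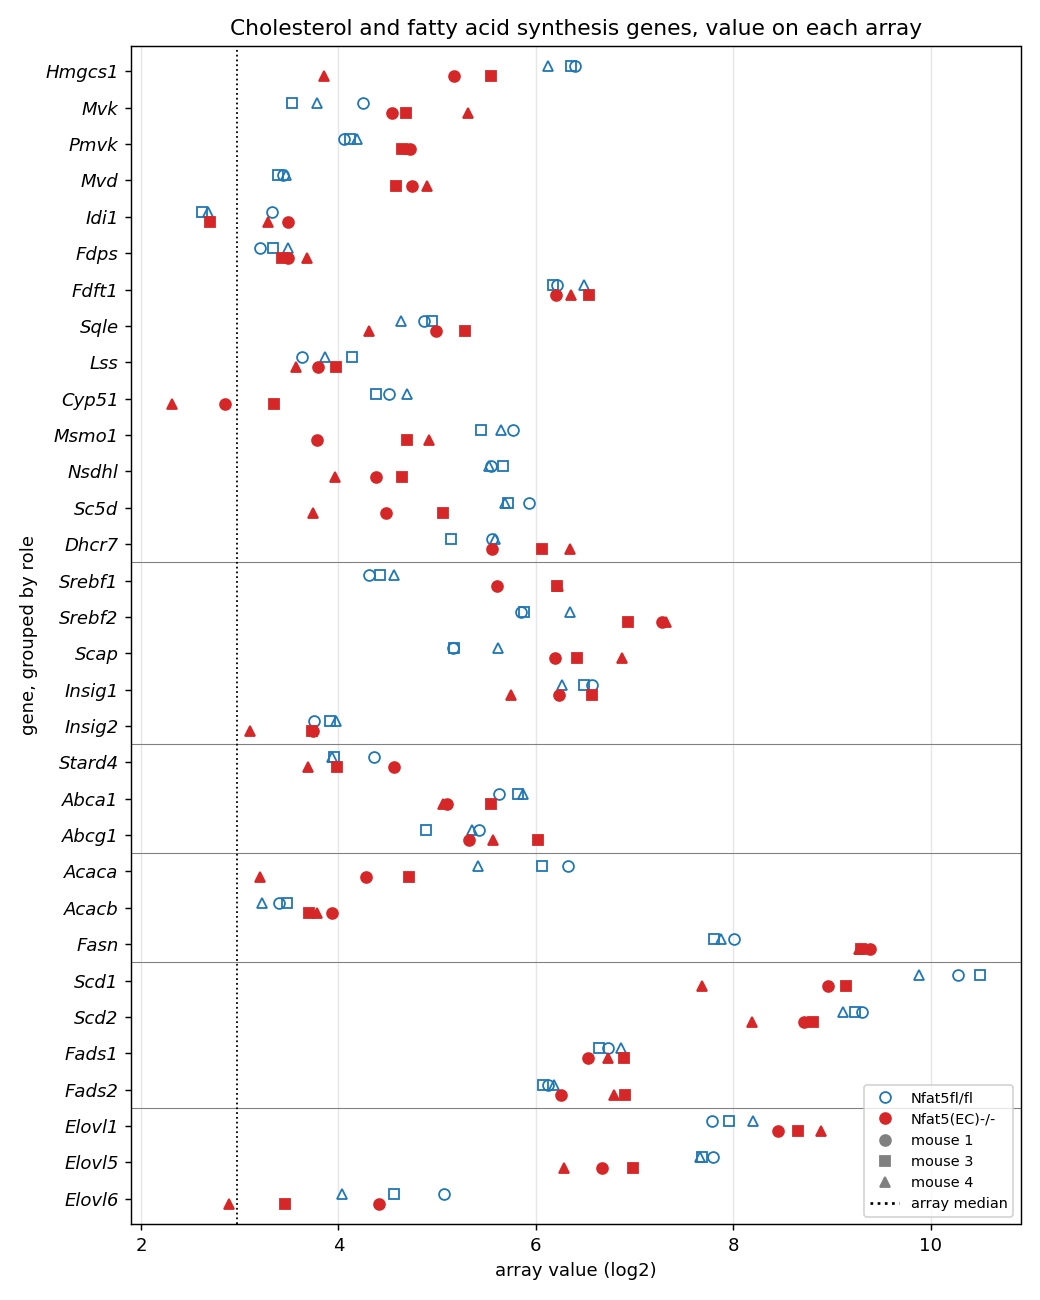
Value of each of the 32 genes (rows, grouped by role) on each of the 6 arrays on a log2 axis, with 1 point per mouse and the groups and mouse numbers told apart by colour and marker. The points of both groups separate for 21 genes, with Srebf1, Fasn and Mvd to the right and Cyp51, Acaca and Scd1 to the left in Nfat5(EC)-/- mice.

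Of the 5 genes of sterol sensing and transcription, 3 were higher, 0 were lower and 2 did not pass, with a median of 1.16. The higher ones were Srebf1, Srebf2 and Scap, which encode both SREBPs and their escort, and those that did not pass were Insig1 and Insig2. Of features above the array median, 46.7% were called in either direction when fitted alone. Whether 3 calls among 5 genes exceed that share was not tested. Srebf1, whose products act mainly on fatty acid genes, was 4.31, 4.42 and 4.56 in Nfat5fl/fl and 5.60, 6.22 and 6.22 in Nfat5(EC)-/- mice. The lowest Nfat5(EC)-/- value was above the highest control value. Srebf1 rose from 4.43 ± 0.13 to 6.01 ± 0.36 (mean ± SD, n = 3 in each group here and below), a 3-fold change and a difference of 1.58 (SE 0.23, adjusted p = 0.00275) with a 95% interval of 1.07 to 2.09. Isoforms of Srebf1 were not separated. Srebf2, which acts mainly on cholesterol genes, was 5.85, 5.88 and 6.35 in Nfat5fl/fl and 7.28, 6.94 and 7.32 in Nfat5(EC)-/- mice. Each Nfat5(EC)-/- value lay above each control value. Srebf2 rose from 6.02 ± 0.28 to 7.18 ± 0.21, or 2.23-fold, a difference of 1.16 (SE 0.22, adjusted p = 0.0066). Scap, the sterol-sensing escort, was 5.17, 5.17 and 5.62 in Nfat5fl/fl and 6.20, 6.41 and 6.87 in Nfat5(EC)-/- mice. Mouse 4 was the highest of its group in both genotypes. The change from 5.32 ± 0.26 to 6.49 ± 0.34 was 2.26-fold, with a difference of 1.17 (SE 0.24, adjusted p = 0.0087). These 3 calls held in each of the 6 fits that left out 1 array.

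Insig1, itself a classical SREBP target, was 6.57, 6.49 and 6.26 in Nfat5fl/fl and 6.24, 6.57 and 5.75 in Nfat5(EC)-/- mice. The groups overlapped, and the difference was -0.25 (SE 0.24, adjusted p = 0.5) with an interval of -0.80 to 0.29. Insig2, the form that depends less on SREBP, was 3.75, 3.92 and 3.97 in Nfat5fl/fl and 3.75, 3.73 and 3.10 in Nfat5(EC)-/- mice. Mouse 4 of the Nfat5(EC)-/- group was the low one, and mice 1 and 3 lay at or just under the lowest control. The difference of Insig2 was -0.35 (SE 0.23, adjusted p = 0.3), with an interval of -0.87 to 0.16. Both intervals stop short of the smallest changes called in other members, which were -1.06 for Elovl5 and 0.57 for Pmvk. Mir33, the microRNA gene that lies inside an intron of Srebf2 and whose product lowers ABCA1 in mice, was 1.68, 1.52 and 1.46 in Nfat5fl/fl and 1.28, 1.61 and 1.58 in Nfat5(EC)-/- mice, at the low end of the scale. It differed by -0.06 (SE 0.19, adjusted p = 0.852). The mature mmu-miR-33-5p is shown with its seed, bases 2 to 8, in capitals, as RefSeq gives it (GRCm38.p6, chr15:82198127-82198147, plus strand).
mmu-miR-33-5p: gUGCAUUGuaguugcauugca
The arrays' feature for this gene does not separate the mature form from its precursor.

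The route from acetyl-CoA to cholesterol was split between higher and lower steps. Of its 14 enzymes, 3 were higher, 5 were lower and 6 did not pass (57.1% called, beside 46.7% of features above the array median when fitted alone), with a median of 0.06. The 3 higher genes, Mvk, Pmvk and Mvd, encode the kinases and the decarboxylase that follow each other in turning mevalonate into isopentenyl diphosphate. The 5 lower genes were Hmgcs1, at the entry to the route, and Cyp51, Msmo1, Nsdhl and Sc5d, which act on the sterol ring after lanosterol has formed. The 5 genes measured between Mvd and Cyp51 had no call in either direction. The 14 do not hold every enzyme of the route. Among 9 other sterol enzymes, given further below, 1 was higher and 3 were lower (44.4% called). The higher one, the sterol reductase gene Tm7sf2, also acts after lanosterol (difference 1.01, limma, adjusted p = 0.00927).

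Hmgcs1, the cytosolic synthase that makes HMG-CoA, was 6.40, 6.35 and 6.13 in Nfat5fl/fl and 5.17, 5.55 and 3.85 in Nfat5(EC)-/- mice. Mouse 4 of the Nfat5(EC)-/- group was far below the other two, and the groups did not overlap. Hmgcs1 fell from 6.29 ± 0.14 to 4.86 ± 0.89, or 2.71-fold, a difference of -1.44 (SE 0.39, adjusted p = 0.0255). The call was lost without Nfat5fl/fl mouse 1, 3 or 4, with adjusted p-values of 0.0929, 0.0901 and 0.0595, and without Nfat5(EC)-/- mouse 4 the difference was -0.93. Mvk, mevalonate kinase, was 4.25, 3.53 and 3.78 in Nfat5fl/fl and 4.54, 4.69 and 5.31 in Nfat5(EC)-/- mice. The nearest values of the groups were those of both mice numbered 1. Mvk rose from 3.85 ± 0.37 to 4.85 ± 0.41, or 1.99-fold, a difference of 0.99 (SE 0.27, adjusted p = 0.0278), and was not called without Nfat5fl/fl mouse 3 or 4 or Nfat5(EC)-/- mouse 4 (0.119, 0.0841 and 0.0654).

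Pmvk, phosphomevalonate kinase, was 4.06, 4.12 and 4.19 in Nfat5fl/fl and 4.73, 4.64 and 4.70 in Nfat5(EC)-/- mice. The values within each group were close together and the groups stood apart. Its difference of 0.57 (SE 0.18, adjusted p = 0.0423) lay just past the threshold, and each of the 6 fits without 1 array lost it. Those fits gave adjusted p-values of 0.133, 0.131, 0.0888, 0.0678, 0.0642 and 0.069, leaving out first the 3 control mice and then the 3 Nfat5(EC)-/- mice, each in the order 1, 3 and 4. The call of Pmvk was also lost after cyclic loess normalization (0.0552). Mvd, the mevalonate diphosphate decarboxylase, was 3.43, 3.39 and 3.47 in Nfat5fl/fl and 4.75, 4.58 and 4.89 in Nfat5(EC)-/- mice. The gap between the groups exceeded the range within either. Mvd rose from 3.43 ± 0.04 to 4.74 ± 0.16, or 2.48-fold, a difference of 1.31 (SE 0.18, adjusted p = 0.00263), and held in all 6 fits.

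After these steps come 5 genes without a call. Idi1, the isomerase, Fdps, the farnesyl diphosphate synthase, and Fdft1, the squalene synthase, differed by 0.29, 0.19 and 0.08. Sqle, which turns squalene into its epoxide, and Lss, which cyclises that to lanosterol, differed by 0.04 and -0.10. Their adjusted p-values ran from 0.508 for Idi1 to 0.928 for Sqle, and in each of the 5 the groups overlapped. The intervals were wide, for example -0.56 to 0.65 for Sqle, so that changes within that range could not be resolved with 3 arrays per group.

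Cyp51, the lanosterol 14-alpha demethylase, was 4.51, 4.38 and 4.69 in Nfat5fl/fl and 2.86, 3.34 and 2.31 in Nfat5(EC)-/- mice. Every Nfat5(EC)-/- value was more than 1 log2 unit under the lowest control. Cyp51 fell from 4.53 ± 0.15 to 2.84 ± 0.52, or 3.23-fold, a difference of -1.69 (SE 0.27, adjusted p = 0.00366), which held in all 6 fits without 1 array. The Nfat5(EC)-/- mean lay under the array median, where differences are compressed. Msmo1, the sterol C4 oxidase, was 5.77, 5.45 and 5.64 in Nfat5fl/fl and 3.78, 4.70 and 4.92 in Nfat5(EC)-/- mice. Here mouse 1, not mouse 4, was lowest in the Nfat5(EC)-/- group. Msmo1 fell from 5.62 ± 0.16 to 4.47 ± 0.60, or 2.22-fold, a difference of -1.15 (SE 0.30, adjusted p = 0.0213). It was not called without Nfat5fl/fl mouse 1, 3 or 4 (0.0861, 0.0594 and 0.0644).

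Nsdhl, the dehydrogenase that works with MSMO1 to remove the C4 methyl groups, was 5.54, 5.66 and 5.52 in Nfat5fl/fl and 4.38, 4.64 and 3.97 in Nfat5(EC)-/- mice. The control values were tightly grouped and lay well above the others. Nsdhl fell from 5.58 ± 0.075 to 4.33 ± 0.34, or 2.37-fold, a difference of -1.24 (SE 0.22, adjusted p = 0.00505), and held in all 6 fits. Sc5d, the sterol C5 desaturase, was 5.93, 5.72 and 5.69 in Nfat5fl/fl and 4.48, 5.06 and 3.75 in Nfat5(EC)-/- mice. Mouse 3 of the Nfat5(EC)-/- group came nearest to the controls and mouse 4 lay farthest. Sc5d fell from 5.78 ± 0.13 to 4.43 ± 0.66, or 2.55-fold, a difference of -1.35 (SE 0.31, adjusted p = 0.0136), and was not called without Nfat5fl/fl mouse 1 or 3 (0.0622 and 0.0526). Dhcr7, a reductase at the end of the route, differed by 0.56 (SE 0.25, adjusted p = 0.138) with overlapping groups, an interval of -0.01 to 1.13, and so departs in sign from the 4 lower genes that precede it without passing the test.

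**Figure D2:**
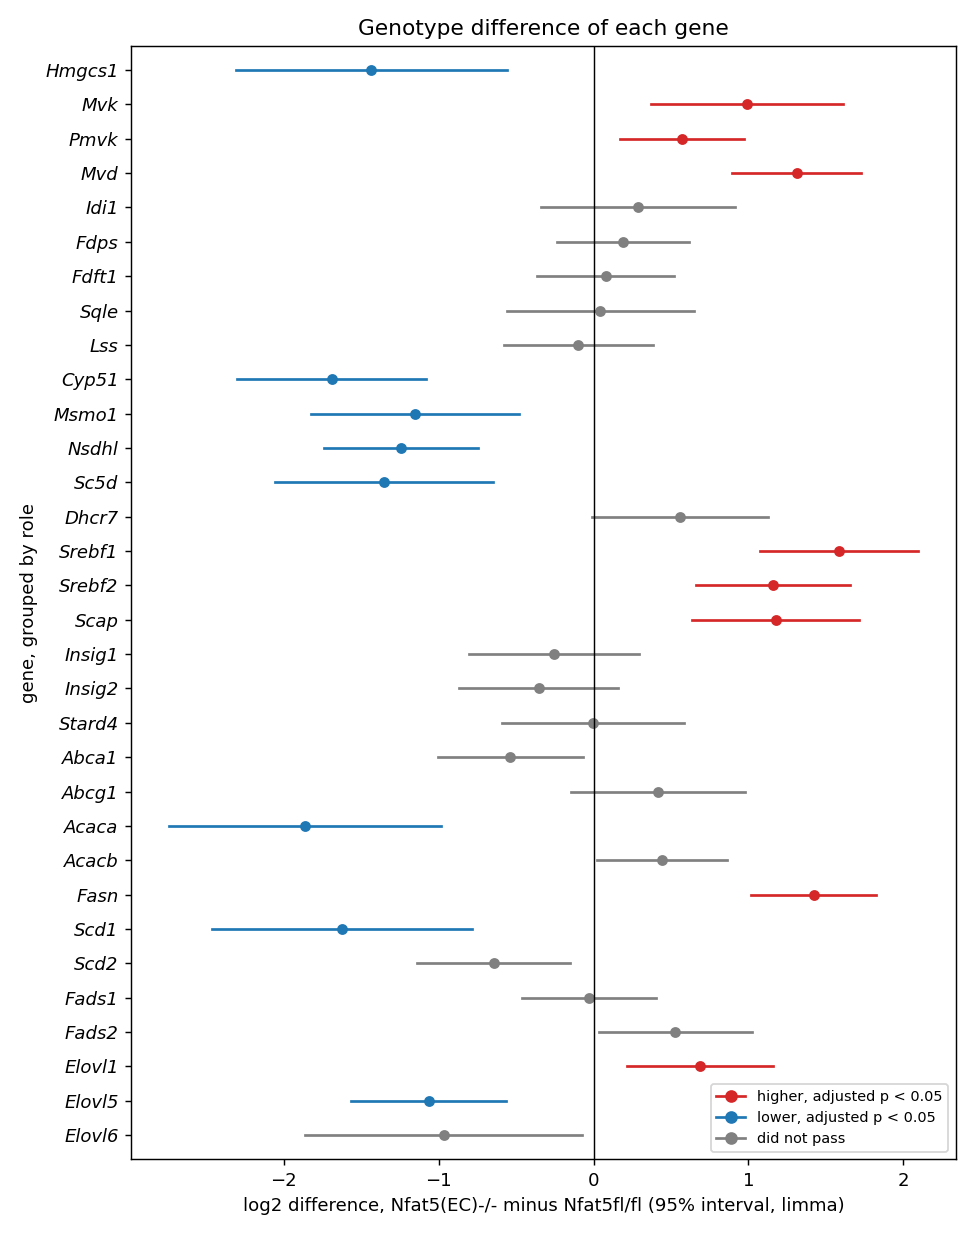
Log2 difference of each of the 32 genes, Nfat5(EC)-/- minus Nfat5fl/fl, as a point with its 95% interval from limma, grouped by role from top to bottom and coloured by call. Srebf1, Srebf2 and Scap lie to the right of 0, whereas the sterol enzymes hold 3 higher and 5 lower genes and the fatty acid genes 2 higher and 3 lower ones.

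None of the 3 sterol transport genes passed the test. Abca1, which exports cholesterol to apolipoprotein A1, was 5.63, 5.82 and 5.87 in Nfat5fl/fl and 5.10, 5.54 and 5.06 in Nfat5(EC)-/- mice. All Nfat5(EC)-/- values were under the controls, mouse 3 by the least. Its difference was -0.54 (SE 0.21, adjusted p = 0.0902), with an unadjusted interval of -1.01 to -0.07. Abcg1, which exports cholesterol to lipoprotein particles and like Abca1 is induced by the sterol receptor LXR, was 5.42, 4.88 and 5.36 in Nfat5fl/fl and 5.32, 6.02 and 5.57 in Nfat5(EC)-/- mice. The groups overlapped, with mouse 3 of the Nfat5(EC)-/- group highest. Its difference was 0.42 (SE 0.25, adjusted p = 0.261), with an interval of -0.14 to 0.98. Stard4, a carrier that moves cholesterol between membranes, differed by -0.01 (SE 0.26, adjusted p = 0.99).

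Among the 10 fatty acid genes, 2 were higher, 3 were lower and 5 did not pass (50.0% called, beside 46.7% of features above the array median when fitted alone), with a median of -0.34. The pair that opens the route moved in opposite directions, since Acaca was lower and Fasn was higher. Acaca, the cytosolic acetyl-CoA carboxylase that makes malonyl-CoA, was 6.32, 6.06 and 5.41 in Nfat5fl/fl and 4.28, 4.71 and 3.21 in Nfat5(EC)-/- mice. Both groups were spread over more than 0.9 log2 units and still did not overlap. Acaca fell from 5.93 ± 0.47 to 4.07 ± 0.78, or 3.64-fold, a difference of -1.86 (SE 0.39, adjusted p = 0.00948). Fasn, the synthase that builds palmitate from malonyl-CoA, was 8.003, 7.81 and 7.88 in Nfat5fl/fl and 9.38, 9.29 and 9.28 in Nfat5(EC)-/- mice. Its values agreed within 0.2 log2 units in either group. Fasn rose from 7.90 ± 0.099 to 9.32 ± 0.059, or 2.68-fold, a difference of 1.42 (SE 0.18, adjusted p = 0.00221). Both calls held in all 6 fits without 1 array. Acacb, the mitochondrial carboxylase, differed by 0.44 (SE 0.19, adjusted p = 0.116), with every Nfat5(EC)-/- value above the controls.

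Scd1, the stearoyl-CoA desaturase that makes oleate, was 10.28, 10.50 and 9.88 in Nfat5fl/fl and 8.96, 9.15 and 7.69 in Nfat5(EC)-/- mice. Mouse 4 of the Nfat5(EC)-/- group was again the low one. Scd1 fell from 10.22 ± 0.31 to 8.60 ± 0.79, or 3.08-fold, a difference of -1.62 (SE 0.37, adjusted p = 0.0134), and was not called without Nfat5fl/fl mouse 1 or 3 (0.0573 and 0.0639). Scd2, a close paralogue, measured 9.22 ± 0.096 in Nfat5fl/fl and 8.57 ± 0.33 in Nfat5(EC)-/- mice, with a difference of -0.64 (SE 0.22, adjusted p = 0.0592) and non-overlapping groups, its interval being -1.14 to -0.15. Where probes of such paralogues bind both transcripts the values are not separate, and probe sequences were not used here. Fads1 and Fads2, the delta-5 and delta-6 desaturases that act in turn on polyunsaturated fatty acids, differed by -0.03 (SE 0.19, adjusted p = 0.939) and 0.53 (SE 0.22, adjusted p = 0.112).

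Of the elongases, Elovl1, which lengthens saturated very long chains, was 7.78, 7.95 and 8.20 in Nfat5fl/fl and 8.45, 8.65 and 8.89 in Nfat5(EC)-/- mice. The groups were separate, although the highest control, mouse 4, came within 0.3 units of the lowest Nfat5(EC)-/- mouse. Elovl1 rose from 7.98 ± 0.21 to 8.66 ± 0.22, or 1.61-fold, a difference of 0.69 (SE 0.21, adjusted p = 0.0403). It was called in 1 of 6 fits without 1 array, that without Nfat5(EC)-/- mouse 1, and leaving out each control mouse in turn, then mouse 3 and mouse 4 of the Nfat5(EC)-/- group, gave 0.147, 0.128, 0.0552, 0.0732 and 0.0933. Elovl5, which lengthens polyunsaturated chains, was 7.80, 7.68 and 7.66 in Nfat5fl/fl and 6.67, 6.99 and 6.29 in Nfat5(EC)-/- mice. Each Nfat5(EC)-/- value was below each control value. Elovl5 fell from 7.71 ± 0.073 to 6.65 ± 0.35, or 2.09-fold, a difference of -1.06 (SE 0.22, adjusted p = 0.00933), and held in all 6 fits. Elovl6, which extends palmitate to stearate, differed by -0.97 (SE 0.40, adjusted p = 0.107) with an overlap between the groups.

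The differences of paralogues and functional partners were set against each other in 7 pairs, by an exact two-sided permutation test over the 20 splits of the 6 arrays, adjusted over the 7 pairs. With 3 mice against 3 this test cannot go below 0.10, so none could pass a threshold of 0.05. Acaca moved down relative to Acacb by 2.31 log2 units, Scd1 relative to Scd2 by 0.98, Abca1 relative to Abcg1 by 0.95 and Fads1 relative to Fads2 by 0.56, each with the lowest possible p of 0.1 and an adjusted p of 0.175. In these 4 pairs the arrays of the groups did not overlap in the difference between the genes. Srebf1 moved up relative to Srebf2 by 0.43 (exact p = 0.3, adjusted 0.42). Insig1 against Insig2 gave 0.10 (exact p = 0.6, adjusted 0.7) and Elovl6 against Elovl5 also gave 0.10 (exact p = 0.8, adjusted 0.8).

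The Nfat5(EC)-/- mice did not deviate equally. For the 8 lower genes, the median deviation from the control mean was -1.28 in mouse 1, -0.93 in mouse 3 and -2.13 in mouse 4. For the 8 higher genes it was 1.03, 1.00 and 1.42. Mouse 4 was the lowest of its group in 7 of the 8 lower genes and the highest in 6 of the 8 higher ones, and mouse 3 was nearest to the controls in 7 of the 8 lower genes. Since the genes were grouped by the same arrays, these medians describe the mice and test nothing.

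**Figure D3:**
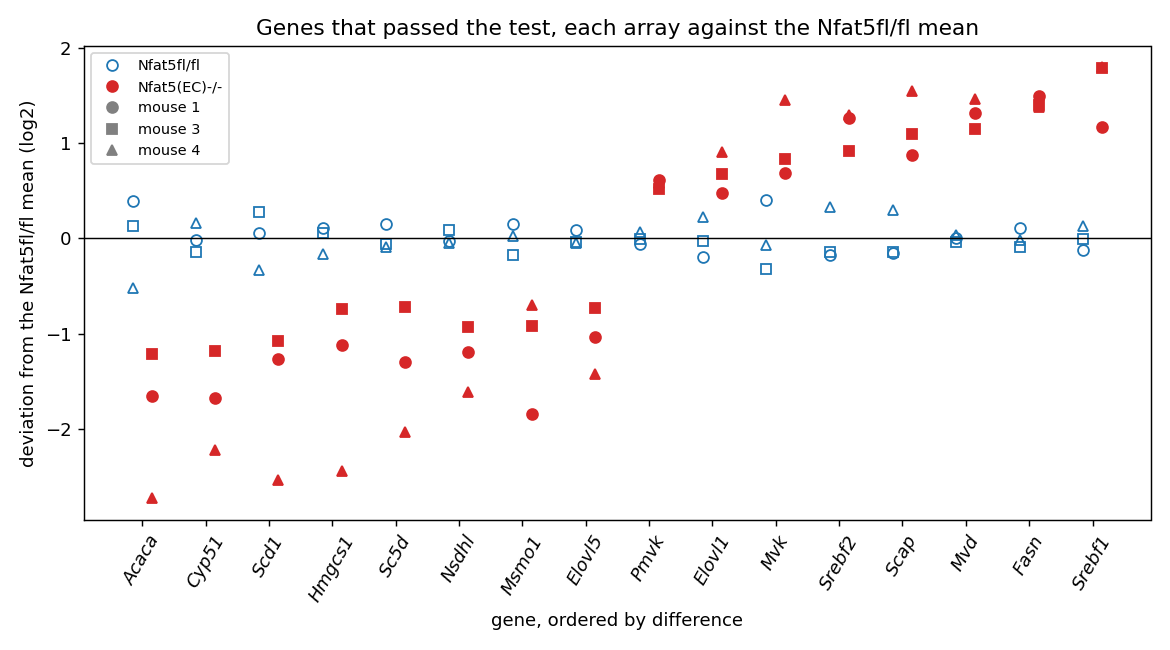
Deviation of each Nfat5(EC)-/- mouse from the mean of the 3 Nfat5fl/fl mice in log2 units (vertical axis), for the 16 genes that passed the test (horizontal axis), with 1 marker per mouse. Mouse 4 is lowest in 7 of the 8 lower genes, with medians of -1.28, -0.93 and -2.13 for mice 1, 3 and 4.

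Some properties of the arrays moved with genotype. The median over 106 small nucleolar RNAs was 4.01 to 4.20 on the Nfat5fl/fl arrays and 6.43 to 7.43 on the Nfat5(EC)-/- arrays. Differences over all 19686 protein-coding features with a known genomic span fell with that span, at a Spearman rho of -0.32 across genes, which are not independent replicates. Of those with spans from 60671 to 2390387 bp, 5.41% were higher and 31.5% lower, and of those from 4792 to 12851 bp, 20.7% were higher and 5.72% lower. Across the 32 genes rho was -0.10, and the median spans of higher and lower genes were 17768.5 and 20967 bp. Of the 5 members in the longest of these ranges, 0 were higher and 2 lower, and of the 6 from 4792 to 12851 bp, 2 were higher and 1 lower. Acaca, a lower gene, has the longest span of the list, 272017 bp. The lower genes Scd1 and Sc5d have spans of 13260 and 12709 bp, and the higher genes Srebf2 and Scap spans of 58111 and 51662 bp. After removal of the span trend, Pmvk (0.44, adjusted p = 0.101) and Elovl1 (0.41, adjusted p = 0.165) were no longer called in limma, and Acacb (0.83, 0.0134), Scd2 (-0.80, 0.0324) and Fads2 (0.72, 0.0388) were. The part of the small nucleolar RNA shift in these results was not tested.

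**Figure D4:**
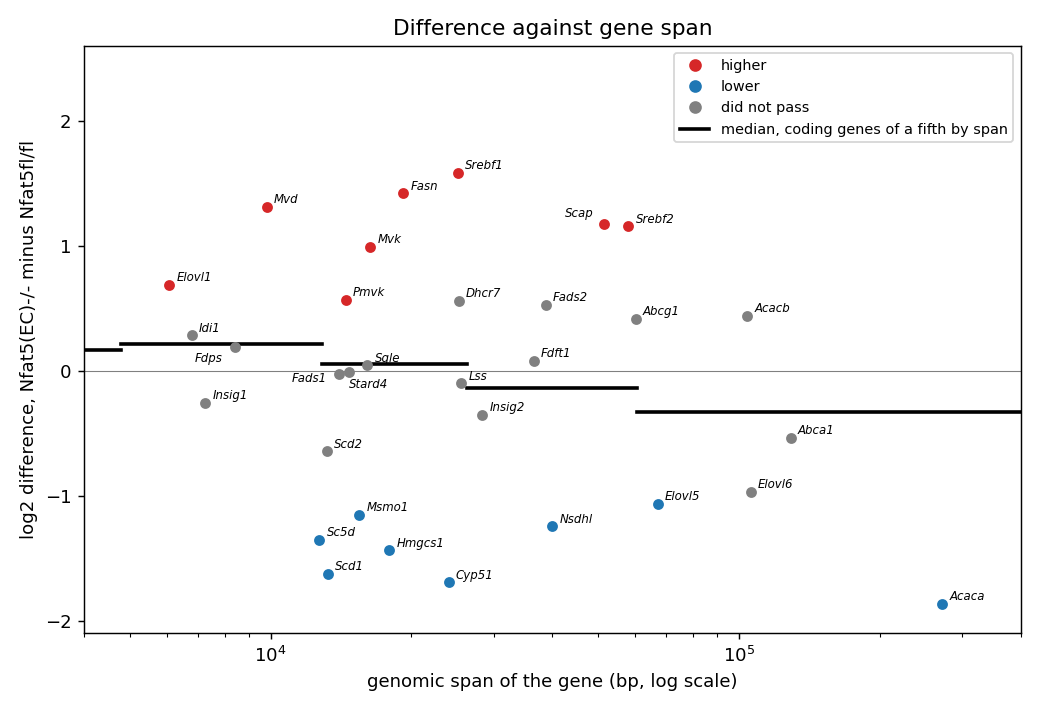
Log2 difference of each of the 32 genes (vertical axis, Nfat5(EC)-/- minus Nfat5fl/fl) against the genomic span of the gene in bp (horizontal axis, log scale), coloured by call, with black lines for the median of all protein-coding genes in each of 5 bins by span. Higher and lower genes occur side by side between 12856 and 26255 bp, where 4 members were higher and 4 lower.

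Markers of cell types that a lobe holds were set beside these genes. Between 30.0% and 35.7% of the alveolar macrophage and alveolar type II lists were called, 36.4% of the adipocyte list and 64.3% of the endothelial list. Of features above the array median, 46.7% were called when fitted alone. Of 14 alveolar type II cell markers, 1 was higher and 4 were lower, with a summed level (log2 of the sum of linear values) of 13.63 to 13.79 in Nfat5fl/fl and 12.80 to 13.39 in Nfat5(EC)-/- mice. The genes with the highest values in this sum, Sftpc and Sftpb, did not pass (limma, adjusted p = 0.254 and 0.42). The lower ones were Hc (-2.69), Cxcl15 (-1.66), Lamp3 (-1.17) and Sftpa1 (-1.04), and the higher one Napsa (1.09). Lamp3 was called in only 1 of the 6 fits without 1 array. Of 10 alveolar macrophage markers, 1 was higher and 2 were lower, with a summed level of 9.17 to 9.42 against 8.39 to 8.87. Among 14 endothelial markers 3 were higher and 6 lower, at 12.09 to 12.32 against 11.30 to 11.45. The lower ones were Pecam1, Cdh5, Tek, Erg, Calcrl and Emcn, and the higher ones Egfl7, Cldn5 and Eng. Erg was not called without Nfat5fl/fl mouse 3 (0.0542). Emcn was not called without Nfat5fl/fl mouse 1, 3 or 4 or Nfat5(EC)-/- mouse 3 (0.0988, 0.0861, 0.0713 and 0.055). Cldn5 was not called without Nfat5fl/fl mouse 1 or 3 (0.0647 and 0.0591). Eng was not called without Nfat5fl/fl mouse 1 or 3 (0.0654 and 0.0571). Of 11 adipocyte markers, 2 were higher and 2 were lower, at 7.83 to 8.78 against 8.08 to 8.21. The lower ones were Ucp1 and Pck1, with differences of -2.33 and -1.09 (limma, adjusted p = 0.00418 and 0.00898). Both calls held without any 1 array. The higher ones were Lipe and Pnpla2, with differences of 0.73 and 0.77 (adjusted p = 0.0337 and 0.0303). They were called in only 1 and 2 of the 6 fits without 1 array. The adipocyte hormone gene Lep had means of 1.86 and 2.17, under the array median in both groups, and Adipoq had means of 3.17 and 2.04. Neither of these passed (0.279 and 0.0525). The part of these cell types in the differences of the 32 genes was not tested.

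Other genes of the same pathways, taken from 8 lists, were also split between the directions. Of 102 measured, 21 were higher, 25 were lower and 56 did not pass, with a median of -0.09. That is 45.1% called, beside 46.7% of features above the array median when fitted alone. Among 9 other sterol enzymes, Tm7sf2, a sterol reductase, was higher by 1.01 (adjusted p = 0.00927), and without Nfat5fl/fl mouse 3 its adjusted p was 0.0504. Cyb5r3, the reductase that passes electrons to several of these oxidations, fell from 10.05 ± 0.20 to 8.83 ± 0.26 (adjusted p = 0.0049). Ggps1, which makes geranylgeranyl diphosphate, fell from 5.27 ± 0.19 to 4.03 ± 0.44 (adjusted p = 0.00837). Erg28, a scaffold of the C4 demethylation enzymes, differed by -0.89 (adjusted p = 0.0228) and was not called without Nfat5fl/fl mouse 1, 3 or 4 (0.0784, 0.0512 and 0.0832). Of 12 genes of SREBP processing, 2 were higher and 2 lower (33.3% called). Spring1, which is needed for SREBP cleavage, rose from 3.44 ± 0.052 to 4.53 ± 0.15 (adjusted p = 0.00437), and Aup1, of the endoplasmic reticulum degradation machinery, rose from 6.41 ± 0.15 to 7.76 ± 0.13 (adjusted p = 0.00262). Erlin1, an endoplasmic reticulum protein that restrains SREBP, fell from 3.62 ± 0.12 to 2.51 ± 0.35 (adjusted p = 0.00834), and the chaperone Hsp90b1 fell from 9.08 ± 0.27 to 7.87 ± 0.11 (adjusted p = 0.00449).

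The list of LXR receptors and targets, Srebf1 and other members left aside, held 5 higher and 1 lower of 10 measured genes. Among features above the array median, 46.7% were called. The LXR gene Nr1h3 itself did not pass, with a difference of 0.46 (adjusted p = 0.388) and overlapping groups. Mylip (-0.58), Lpcat3 (0.14) and Pltp (0.42) did not pass either. The higher genes were Rxra and Rxrb, which encode partner receptors of LXR and not LXR itself, and Apoe, Apoc1 and Abca7. Regulation of these genes by LXR was not tested. The lipoprotein gene Apoe rose from 5.21 ± 0.21 to 6.42 ± 0.049 (adjusted p = 0.00353). Apoc1, also a lipoprotein gene, rose from 3.91 ± 0.069 to 5.12 ± 0.28 (adjusted p = 0.00438). The transporter Abca7 rose from 3.50 ± 0.18 to 4.95 ± 0.46 (adjusted p = 0.00521). Abca5, a relative of Abca7, differed by -0.89 (adjusted p = 0.0285) and was not called without Nfat5fl/fl mouse 1, 3 or 4 or Nfat5(EC)-/- mouse 4 (0.0885, 0.115, 0.059 and 0.0648). Among 14 genes of sterol uptake, transport and esterification, 3 were higher and 1 was lower (28.6% called). Lrp1, a receptor for lipoprotein remnants, rose from 6.55 ± 0.26 to 7.89 ± 0.39 (adjusted p = 0.00615), and Vldlr, the very low density lipoprotein receptor, fell from 4.53 ± 0.23 to 3.01 ± 0.60 (adjusted p = 0.00775). Stard3, which moves cholesterol out of late endosomes, was higher by 0.89 (adjusted p = 0.0158) but not without Nfat5fl/fl mouse 1 or 3 (0.0636 and 0.0649). Scarb1, a receptor for high density lipoprotein, was higher by 0.80 (adjusted p = 0.0242) but not without Nfat5fl/fl mouse 1 or 3 or Nfat5(EC)-/- mouse 4 (0.0959, 0.0972 and 0.0561).

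The list of acetyl-CoA and NADPH supply, which also holds Mcat, Oxsm, Mecr and Cbr4 of mitochondrial fatty acid synthesis, had 2 higher and 5 lower of 11 genes. That is 63.6% called, beside 46.7% of features above the array median when fitted alone. Acly (-0.39), Me1 (-0.54), Acss2 (-0.03) and Mecr (-0.41) did not pass. Slc25a1, the citrate carrier that exports acetyl units from mitochondria, rose from 5.74 ± 0.11 to 7.14 ± 0.012 (adjusted p = 0.00223), and Mcat, of mitochondrial fatty acid synthesis, rose from 3.77 ± 0.15 to 5.13 ± 0.058 (adjusted p = 0.00241). Pdha1, a subunit of pyruvate dehydrogenase, fell from 5.57 ± 0.20 to 4.46 ± 0.077 (adjusted p = 0.00473). Me2, the mitochondrial malic enzyme and not the cytosolic form encoded by Me1, fell from 4.92 ± 0.089 to 3.81 ± 0.24 (adjusted p = 0.00526). Idh1, a cytosolic source of NADPH, differed by -1.18 (adjusted p = 0.0126) and was not called without Nfat5fl/fl mouse 1 or 3 (0.0608 and 0.0587). Of 17 further genes of elongation, desaturation and fatty acid activation, 2 were higher and 7 lower (52.9% called), beside the same 46.7%. Elovl7, an elongase, fell from 3.38 ± 0.027 to 2.15 ± 0.14 (adjusted p = 0.00292), to a value under the array median. Hacd2, the dehydratase of the elongation cycle, fell from 5.88 ± 0.18 to 4.21 ± 0.65 (adjusted p = 0.00628), and Acsl4, which activates arachidonate, fell from 6.63 ± 0.29 to 5.09 ± 0.52 (adjusted p = 0.00628). Tecr, the reductase that closes the elongation cycle, was higher by 0.93 (adjusted p = 0.0232), but not without Nfat5fl/fl mouse 1 or 3 or Nfat5(EC)-/- mouse 3 or 4 (0.0982, 0.0995, 0.0604 and 0.0523). Fads3, a desaturase of the same cluster as Fads1 and Fads2, was higher by 0.75 (adjusted p = 0.0314), but not without Nfat5fl/fl mouse 1, 3 or 4 or Nfat5(EC)-/- mouse 3 or 4 (0.122, 0.0598, 0.0658, 0.061 and 0.0688).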

How the data were processed

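RNA of 1 lung lobe per mouse was hybridised to 6 arrays, 3 per group. The authors processed the arrays with RMA and deposited log2 values, 1 per feature. RMA subtracts background and gives all arrays 1 distribution. Neither probe set definition nor build is stated. No detection calls were used, and a change in total RNA would not be visible.

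The members and gene lists were chosen with earlier results of these data known. Of 25428 features, 24705 carried a symbol. All features were tested with limma 3.58.1 in R 4.3.3 (lmFit and eBayes, two-sided, Benjamini-Hochberg, threshold 0.05) without filter or block. P-values rest on the spread between these animals, which limma moderates toward the spread pooled over all features. All called members are given by array, as are Srebf1, Srebf2, Scap, Insig1, Insig2, Abca1 and Abcg1, and of each pathway list up to 3 called genes per direction, by smallest p, are given as group means or a difference. The span trend was removed by lowess (fraction 0.2) over 19686 protein-coding features, with span from RefSeq assembly GRCm38.p6. Alternatives were median and cyclic loess normalization, a filter on dim features, array weights, other variance moderation, protein-coding features only, the mouse number as a block, and each array left out. Pair differences under these settings were added after the data were seen. On data simulated with 25428 features, of which 200 were changed, 20.2% of 1-unit and 73.4% of 2-unit changes were recovered, with 2.83% false calls. The simulation gave both groups the same spread per feature. In the data 6510 features were called, so the simulated cut was not that of the data and these rates do not give its recovery.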

Additional observations from a re-analysis of the deposited data

How the results depend on the processing

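Variance moderation moved the counts most. Without it, 1984 features were called in place of 6510, 4 of the 32 genes were higher and 1 lower in place of 8 and 8, and 9 of the other pathway genes were higher and 6 lower in place of 21 and 25. Leaving out 1 array at a time gave 3017 to 6365 features, 5 to 9 higher and 4 to 10 lower members, and 13 to 22 higher and 12 to 24 lower other pathway genes. Calls that held in all 6 of those fits were those of Fasn, Mvd, Scap, Srebf1 and Srebf2 among the higher genes and Acaca, Cyp51, Elovl5 and Nsdhl among the lower ones. Same-numbered mice of the groups did not deviate together (correlations of 0.065, -0.010 and 0.007), so the number is not known to pair them. With the mouse number as a replicate block, 6310 features were called, with 7 higher and 9 lower members and 22 higher and 22 lower other pathway genes. Pmvk (adjusted p = 0.0725) was then not called and Elovl6 (0.0185) was. Signs turned in 6 genes and 2 pairs, none of them with a call. After removal of the span trend, the differences of Fdps and Sqle were -0.059 and -0.058 and that of Insig1 against Insig2 was -0.25. Fads1 was 0.0047 after cyclic loess and 0.030 with array weights, where Elovl6 against Elovl5 gave -0.00053 and -0.053. Leaving out 1 array gave -0.0081 to 0.18 for Fdft1, -0.17 to 0.32 for Sqle, -0.22 to 0.030 for Lss, -0.25 to 0.19 for Stard4, -0.12 to 0.067 for Fads1, -0.035 to 0.23 for Insig1 against Insig2 and -0.30 to 0.33 for Elovl6 against Elovl5. With 3 arrays per group, the number of arrays limits what can be detected, and values near the low end of an array are compressed.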

Other observations

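Genes that regulate lipid synthesis outside the SREBP route, and those that build glycerolipids from its products, were also split. Of 12 lipogenic regulators, 3 were higher and 3 lower. Usf2, a factor that binds E-boxes, rose from 3.80 ± 0.24 to 5.17 ± 0.20 (adjusted p = 0.00318), and Mid1ip1, which promotes polymerisation of acetyl-CoA carboxylase, rose from 5.60 ± 0.063 to 6.70 ± 0.047 (adjusted p = 0.00367). Stk11, the kinase LKB1 that activates AMP-activated protein kinase, rose from 5.06 ± 0.069 to 6.19 ± 0.22 (adjusted p = 0.00464). Prkaa1, a catalytic subunit of AMP-activated protein kinase, fell from 6.71 ± 0.25 to 5.21 ± 0.37 (adjusted p = 0.00391). These 4 calls held in limma without any 1 of the 6 arrays. Thrsp, a regulator of lipogenesis, was lower by a log2 difference of -1.62 (adjusted p = 0.0161) but was not called without Nfat5fl/fl mouse 1 or 3 (0.0628 and 0.0652). Prkaa2, the other catalytic subunit, differed by -1.09 (adjusted p = 0.0199) and was not called without Nfat5fl/fl mouse 1, 3 or 4 (0.0661, 0.0623 and 0.0706).

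Of 17 glycerolipid synthesis genes, 3 were higher and 3 lower. Etnk1, the ethanolamine kinase, fell from 5.56 ± 0.10 to 4.37 ± 0.33 (adjusted p = 0.00577) and held without any 1 array. Agpat1, an acyltransferase that makes phosphatidic acid, was higher by a log2 difference of 0.96 (adjusted p = 0.0165) but was not called without Nfat5fl/fl mouse 1 or 3 (0.0722 and 0.0714). Chpt1, the choline phosphotransferase, differed by -1.06 (adjusted p = 0.0222) and was not called without Nfat5fl/fl mouse 1 or 3 (0.0901 and 0.0913). Agpat3, of the same family as Agpat1, differed by 0.75 (adjusted p = 0.0219) and was not called without Nfat5fl/fl mouse 3 or 4 (0.0967 and 0.0694). Dgat1, which makes triglyceride, differed by 0.76 (adjusted p = 0.0433) and was not called without Nfat5fl/fl mouse 1, 3 or 4 or Nfat5(EC)-/- mouse 1 or 4 (0.122, 0.134, 0.0986, 0.062 and 0.0946). Lpin2, a phosphatidic acid phosphatase, differed by -1.16 (adjusted p = 0.0284) and was not called without Nfat5fl/fl mouse 1, 3 or 4 or Nfat5(EC)-/- mouse 1 or 4 (0.0968, 0.0995, 0.0649, 0.0542 and 0.065). The share called was 50.0% of the regulators and 35.3% of the glycerolipid genes, against 46.7% of features above the array median when fitted alone.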
